A study of Homo sapiens with 4 samples.

Results

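The genes described here are 10 members of the aldo-keto reductase family, taken from the gene count matrix by symbol, out of 64252 gene rows. Each of the 10 symbols matched 1 Ensembl identifier with a row in the matrix. The members are AKR1A1, AKR1B1, AKR1B10, AKR1C1, AKR1C2, AKR1C3, AKR1D1, AKR1E2, AKR7A2 and AKR7A3. They were chosen with the comparison of the 2 groups already known, that is, selected on their counts in the 4 libraries, so their values in that comparison are a description and are given without a test of their own.

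The cells were SK-N-BE(2), an established human neuroblastoma line with amplified MYCN, and received either a scramble short hairpin RNA (shRNA; 2 libraries, called scramble) or an shRNA against IRF2BP2 (2 libraries, called shIRF2BP2). Both groups were of the same line and both carried a hairpin, and no untreated cells were included. The hairpin sequence, the number of hairpins and the time between transfection and harvest are not stated in what was used here. The libraries were made from total RNA with an Illumina TruSeq RNA kit, sequenced on a NovaSeq6000 and held between 30847699 and 34684651 counts each. IRF2BP2 itself was at 243 and 238 CPM (counts per 1e6 counts of the library, scaled) in the scramble libraries and at 89.6 and 87.6 CPM in the shIRF2BP2 libraries. Of 12 marker genes of noradrenergic neuroblastoma, 12 were at 1 CPM or more in every library. Of 8 hepatocyte markers, a cell type rich in aldo-keto reductases, TTR, SERPINA1 and FGB had no count, and the 8 summed to at most 0.812 CPM. Of 7 adrenal cortex markers, NR5A1, MC2R and CYP11B1 had no count, and the 7 summed to at most 3.29 CPM. The 5 leukocyte markers summed to between 3.47 and 6.97 CPM and the 4 epithelial markers to between 1.75 and 3.32 CPM. The 6 fibroblast markers summed to between 167 and 171 CPM with scramble and between 147 and 151 CPM with the shRNA. Within them COL1A1 and COL3A1 were at higher and LUM, DCN and PDGFRA at lower levels with the shRNA. The part of these marker differences in the results was not tested.

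Aldo-keto reductases are soluble enzymes that use NADPH to turn aldehydes and ketones into alcohols. Their substrates include sugars, products of lipid peroxidation, retinaldehyde, prostaglandins and steroid hormones, so the same family serves both detoxification and hormone metabolism. Several AKR1C and AKR1B genes are textbook targets of NRF2 (gene NFE2L2), a transcription factor that KEAP1 holds in check and that binds the antioxidant response element together with a small MAF protein. AKR1B1 is aldose reductase, the entry of glucose into the polyol pathway. AKR1C1, AKR1C2 and AKR1C3 act as ketosteroid reductases with different preferred positions on the steroid, and AKR1C3 also makes prostaglandin F.

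The AKR1C genes are copies of one another, and this bears on every AKR1C count below. The main coding transcripts of AKR1C1, AKR1C2 and AKR1C3 each have a coding sequence of 969 bases (GENCODE release 29, GRCh38). AKR1C1 and AKR1C2 were identical at 98.0% of these bases, with 19 differences. AKR1C1 and AKR1C3 were identical at 91.4%, with 83 differences, and AKR1C2 and AKR1C3 at 91.0%, with 87 differences. The first 90 coding bases show how little separates them. In these lines, capitals mark a base that differs from AKR1C1 at the same position.
AKR1C1: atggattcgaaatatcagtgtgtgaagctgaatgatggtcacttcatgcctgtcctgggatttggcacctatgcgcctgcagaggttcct
AKR1C2: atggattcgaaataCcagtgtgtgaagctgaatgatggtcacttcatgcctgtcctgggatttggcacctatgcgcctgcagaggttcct
AKR1C3: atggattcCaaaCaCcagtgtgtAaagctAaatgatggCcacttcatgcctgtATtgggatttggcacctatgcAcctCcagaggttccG
AKR1C4: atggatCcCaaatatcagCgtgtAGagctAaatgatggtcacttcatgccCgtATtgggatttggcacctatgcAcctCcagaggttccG
AKR1C2 differs from AKR1C1 at 1 of the 90 bases, AKR1C3 at 11 and AKR1C4, the liver member of the group, at 12.

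A read can be assigned to 1 gene only if it covers a difference. Of all stretches of 50 bases in the AKR1C1 coding sequence, 54.3% also occurred, on either strand, in a transcript of another gene, and 51.6% occurred in AKR1C2. For AKR1C2 the share was 57.1%, and for AKR1C3 it was 23.0%. With stretches of 100 bases the shares were 20.7% for AKR1C1, 26.4% for AKR1C2 and 9.77% for AKR1C3, and with 150 bases they were 4.63%, 7.32% and 2.68%. AKR7A3 shared 31.5% of its stretches of 50 bases, nearly all with AKR7L, and AKR1B10 shared 28.5%. AKR7A2 shared 10.2% and AKR1B1 7.23%, the latter with its pseudogenes. AKR1A1 and AKR1E2 shared none at any of the 3 lengths. Over the whole main transcript, untranslated parts included, AKR1C1 still shared 11.3% and AKR1C2 21.2% of stretches of 150 bases, and AKR1C3 1.33%. The read length and the treatment of reads that fit several genes are likewise not stated.

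**Figure D1:**
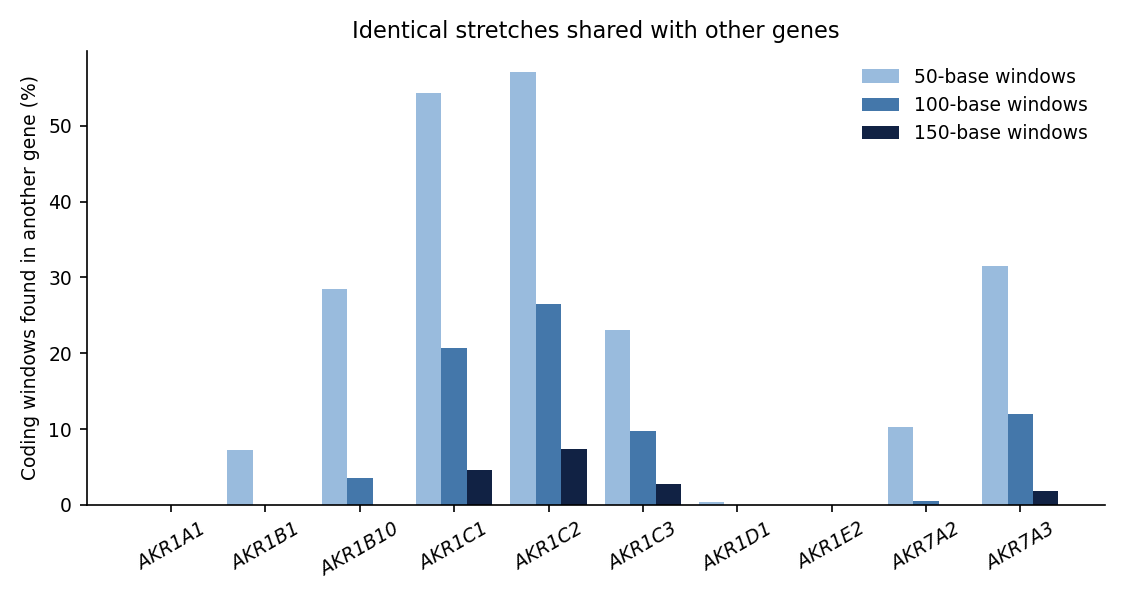
Share of coding stretches of each member that also occur in a transcript of another gene (vertical axis, percent), for stretches of 50, 100 and 150 bases. AKR1C1 and AKR1C2 stand highest at 50 bases, with 54.3% and 57.1%, while AKR1A1 and AKR1E2 have no shared stretch.

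The same 3 AKR1C genes are also alike upstream. These are the 250 bases before the annotated start in RefSeq (GRCh38.p14), shown because AKR1C1, AKR1C2 and AKR1C3 were all higher with the IRF2BP2 shRNA. AKR1C1 lies at chr10:4963165-4963414 on the plus strand. AKR1C2 lies at chr10:5003858-5004107 on the minus strand. AKR1C3 has 2 annotated starts. The window shown, on the plus strand at chr10:5094164-5094413, has the higher identity to AKR1C1 over aligned bases. It also has more bases without a partner, 16 against 9 for the other window. Capitals mark bases that differ from AKR1C1, or have no partner there, in a global alignment.
AKR1C1: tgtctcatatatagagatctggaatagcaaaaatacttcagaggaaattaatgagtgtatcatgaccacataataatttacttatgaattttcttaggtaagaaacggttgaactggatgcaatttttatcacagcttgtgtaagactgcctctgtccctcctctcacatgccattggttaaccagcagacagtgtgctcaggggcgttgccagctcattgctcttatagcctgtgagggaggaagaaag
AKR1C2: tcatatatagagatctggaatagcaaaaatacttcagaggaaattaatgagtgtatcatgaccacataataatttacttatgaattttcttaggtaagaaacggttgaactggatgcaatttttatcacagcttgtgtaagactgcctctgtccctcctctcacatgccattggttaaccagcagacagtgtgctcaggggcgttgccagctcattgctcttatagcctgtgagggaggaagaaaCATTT
AKR1C3: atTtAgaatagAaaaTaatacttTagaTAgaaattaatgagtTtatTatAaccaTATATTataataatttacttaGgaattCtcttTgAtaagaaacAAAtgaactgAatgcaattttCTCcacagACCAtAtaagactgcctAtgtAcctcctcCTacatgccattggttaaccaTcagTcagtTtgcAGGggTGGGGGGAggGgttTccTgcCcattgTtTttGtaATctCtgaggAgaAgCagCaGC
The AKR1C1 and AKR1C2 windows were identical at 99.6% of 246 aligned bases, a closer match than between their coding sequences. The AKR1C3 window matched AKR1C1 at 78.6% of 234 aligned bases. The window at the other AKR1C3 start, chr10:5048531-5048780, matched at 76.8% of 241.

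The core of the antioxidant response element, written TGACNNNGC and read on both strands, was in none of these AKR1C windows, nor was the AP-1 motif TGANTCA. Some sequences match both patterns. Over the 35116 RefSeq windows of this length, 10.9% held the first motif and 6.57% the second. No match says only that these letters are absent from these 250 bases. The GENCODE spans begin farther upstream, at chr10:5035354 for AKR1C3 and chr10:5018031 for AKR1C2, and the bases before those starts were not searched. The AKR1C1 span begins at chr10:4963253, inside its window, so part of that window lies within the gene. For AKR1A1, AKR7A3, AKR1D1 and AKR1E2 the GENCODE spans also begin upstream of the windows searched. Windows were found for 9 of the 10 members, and only those of AKR7A2 held the core motif, 3 times. AKR7A2 is the member called lower with the shRNA. Its window also runs into SLC66A1, a gene on the plus strand that starts at chr1:19312326. The 3 matches lie between the 2 genes, and SLC66A1 was called higher (log2 fold change 0.58). Whether the matches bear on either gene was not tested. The AKR7A2 window on the minus strand at chr1:19312145-19312394 is shown with the 3 matches in capitals.
AKR7A2: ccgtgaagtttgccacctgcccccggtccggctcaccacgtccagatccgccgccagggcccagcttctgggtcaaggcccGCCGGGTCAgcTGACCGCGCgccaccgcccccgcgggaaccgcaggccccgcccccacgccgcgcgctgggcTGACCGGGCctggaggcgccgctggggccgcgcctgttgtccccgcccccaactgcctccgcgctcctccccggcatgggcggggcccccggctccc
None of the 13 windows of the members held the AP-1 motif. A match describes the sequence and does not show that a factor binds there.

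The AKR1C cluster held the large differences of the family. AKR1C3, the ketosteroid reductase that makes testosterone and prostaglandin F, lies at chr10:5035354-5107686 on the plus strand (ENSG00000196139). Its counts were 239 and 269 with scramble and 1823 and 1778 with the shRNA. On the CPM scale its level was 6.89 and 8.76 with scramble and 57.0 and 55.6 with the shRNA. Both shRNA libraries thus lay far above both scramble libraries. The difference was 7.21-fold (log2 fold change 2.85, standard error 0.11).

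AKR1C1, which inactivates progesterone, lies at chr10:4963253-4983283 on the plus strand (ENSG00000187134). It had 175 and 163 counts with scramble and 1214 and 1161 with the shRNA, or 5.04 and 5.31 CPM against 38.0 and 36.3 CPM. The groups did not overlap, and the 2 libraries of each group were close to each other. The difference was 7.17-fold (log2 fold change 2.84, standard error 0.10), close to that of AKR1C3. Among the 19093 genes tested, ordered by log2 fold change from the highest, AKR1C3 held rank 83 and AKR1C1 rank 84.

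AKR1C2, which inactivates dihydrotestosterone, lies between them on the minus strand at chr10:4987400-5018031 (ENSG00000151632). It was the weakest of the 3, with 57 and 60 counts with scramble and 166 and 217 with the shRNA. Its level was 1.64 and 1.95 CPM with scramble and 5.19 and 6.78 CPM with the shRNA, again without overlap but with a wider gap between the 2 shRNA libraries. The log2 fold change was 1.74 (standard error 0.23, 3.33-fold), at rank 284. A gene on the opposite strand whose span overlaps that of AKR1C2, ENSG00000224251, held at most 9 counts in a library and shared no exon base with AKR1C2.

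Counts of AKR1C2 followed those of AKR1C1 only in part. In the scramble libraries AKR1C1 had 3.07 and 2.72 counts for each count of AKR1C2, and in the shRNA libraries 7.31 and 5.35. AKR1C2 made up 12.1% and 12.2% of the counts of the 3 genes with scramble and 5.18% and 6.88% with the shRNA. AKR1C3 kept close to AKR1C1, with 1.37 and 1.65 counts per AKR1C1 count with scramble with scramble and 1.502 and 1.53 with the shRNA. These are ratios of counts, not of molecules, because the annotated transcripts differ in length. Whether the AKR1C2 difference departs from that of AKR1C1 was not tested, and with 98.0% identical coding bases some of its counts could belong to AKR1C1.

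Summing the cluster removes the question of how reads were divided among its genes, although reads dropped as ambiguous would still be missing. AKR1C1, AKR1C2, AKR1C3 and AKR1C4 fitted as 1 feature gave a log2 fold change of 2.75 (standard error 0.08), or 6.72-fold. AKR1C1, AKR1C2 and AKR1C3 together stood at 13.6 and 16.03 CPM with scramble and at 100.2 and 98.6 CPM with the shRNA. They held 3.87% and 4.49% of the counts of the 10 members with scramble, and 22.4% and 21.7% with the shRNA. The other 7 members together moved little, from 337 and 341 CPM to 348 and 357 CPM.

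**Figure D2:**
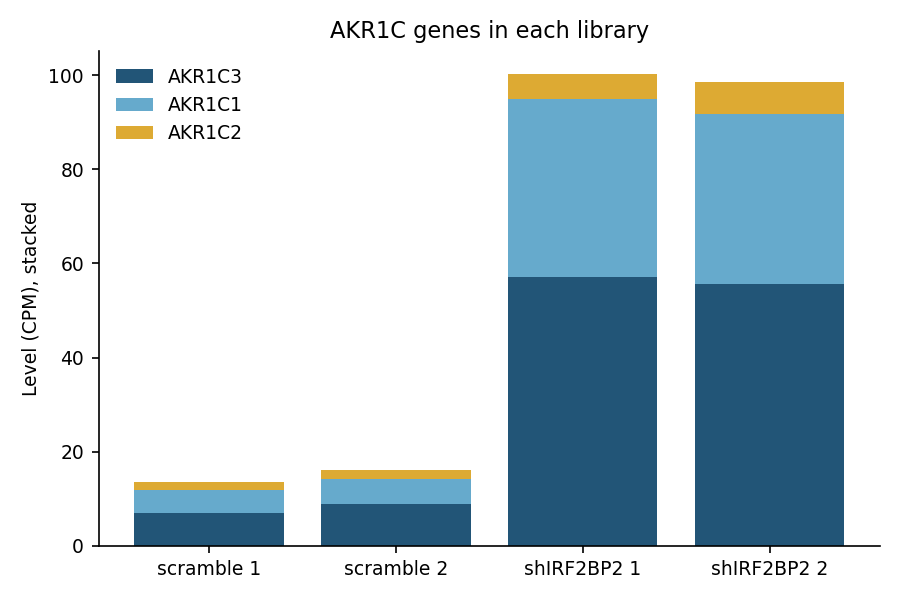
Levels of AKR1C3, AKR1C1 and AKR1C2 in each library (vertical axis, CPM), stacked so that the height of a bar is their sum. The 2 scramble bars reach 13.6 and 16.03 CPM and the 2 shIRF2BP2 bars 100.2 and 98.6 CPM, with AKR1C2 the thinnest band in each.

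AKR1E2, which reduces an anhydro sugar formed from glycogen, is the outlying gene of the same cluster at chr10:4786629-4848062 (ENSG00000165568). Its level was 9.60 and 8.73 CPM with scramble and 12.7 and 12.3 CPM with the shRNA. The groups did not overlap, but the difference of 1.36-fold (log2 fold change 0.45, standard error 0.13) was far smaller than that of the AKR1C genes beside it. The liver gene AKR1C4 had between 0 and 2 counts in a library, and AKR1C8 had none. These were the only other protein-coding genes within 200000 bases of the 4 members on chromosome 10, so no gene outside the family could be compared at this locus.

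The members with the highest levels differed little between the groups. AKR1B1, aldose reductase, lies at chr7:134442350-134459284 on the minus strand (ENSG00000085662) and stood at 198 and 201 CPM with scramble and 217 and 221 CPM with the shRNA. The groups did not overlap, and the difference was 1.10-fold (log2 fold change 0.13, standard error 0.04). AKR1A1, the general aldehyde reductase, lies at chr1:45550543-45570049 (ENSG00000117448). It stood at 76.3 and 79.3 CPM with scramble and at 75.9 and 80.0 CPM with the shRNA, so that the shRNA libraries enclosed both scramble libraries. Its log2 fold change was 0.0029 (standard error 0.05), and its sign turned with the scaling.

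AKR7A2 was the 1 member past the threshold in the lower direction. It reduces aflatoxin dialdehyde and succinic semialdehyde, a product of GABA breakdown, and lies at chr1:19303965-19312146 on the minus strand (ENSG00000053371). Its level was 50.3 and 49.0 CPM with scramble and 40.6 and 40.2 CPM with the shRNA. The groups did not overlap, and scramble exceeded shRNA by 1.23-fold, a log2 fold change of -0.30 with a standard error of 0.07. Its neighbour AKR7A3, a related aflatoxin aldehyde reductase at chr1:19282558-19289250 (ENSG00000162482), stood at 3.11 and 2.54 CPM against 1.97 and 2.81 CPM. These values overlapped (log2 fold change -0.24, standard error 0.27). AKR7A2 and AKR7A3 share 92.1% of their aligned coding bases.

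AKR1B10 and AKR1D1 had too few counts for a test. AKR1B10, a reductase of retinaldehyde and of aldehydes from lipid peroxidation, had 0 counts in both scramble libraries and 2 and 13 in the shRNA libraries. A count of 0 allows up to 0.0865 and 0.0973 CPM in the scramble libraries, and the library with 2 counts lies under that limit of 3 counts, so no fold is given. AKR1D1, which reduces a double bond of steroid hormones and bile acid precursors in the liver, had 0 counts in the 4 libraries, which allows up to 0.0232 CPM over all of them. These limits cover counting error only.

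**Figure D3:**
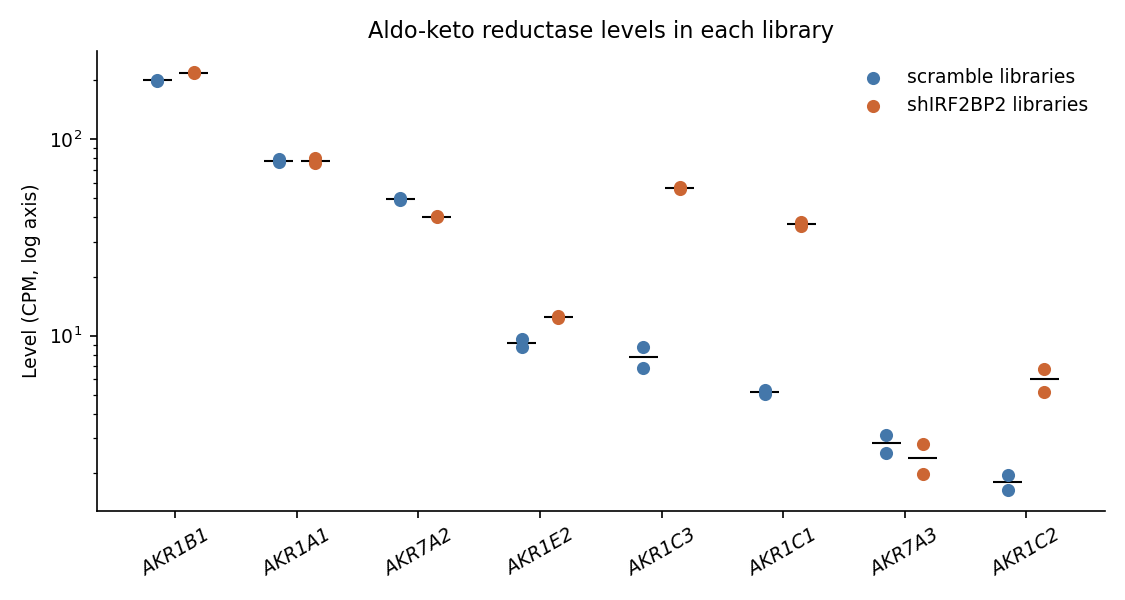
Level of the 8 members with enough counts for a test (vertical axis, CPM on a log axis) in the 2 scramble and the 2 shIRF2BP2 libraries, with a line at each group mean. AKR1C3 and AKR1C1 rise from 7.83 and 5.18 CPM to 56.3 and 37.1 CPM, while AKR1B1 and AKR1A1 stay near their scramble levels.

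Of the 10 members, 8 had enough counts to be tested. With edgeR's quasi-likelihood test and an adjusted p under 0.05 over all 19093 genes, 42.0% of genes were called, 20.6% as higher and 21.4% as lower. The balance moved with the scaling: 49.0% of called genes were higher with TMM and 41.8% with upper quartile scaling. Of the 8 members 5 were called higher (AKR1C1, AKR1C2, AKR1C3, AKR1E2 and AKR1B1), 1 lower (AKR7A2) and 2 were not called (AKR1A1 and AKR7A3). Nothing is read from these counts, since the members were chosen with this comparison known. The groups did not overlap for 6 of the 8, with 5 higher and 1 lower, against 70.4% of all genes tested (34.4% higher and 36.0% lower). AKR1C1, AKR1C2 and AKR1C3 were among the genes called higher by over 2-fold, which were 2.95% of all genes tested. AKR1B1 and AKR1E2 each passed the threshold in 7 of 11 alternative settings. With all 4 libraries, AKR1B1 missed it under upper quartile scaling (edgeR adjusted p = 0.11). It also did so with a mean of at least 10 CPM (edgeR adjusted p = 0.057). AKR1E2 missed the threshold with all 4 libraries in the DESeq2 Wald test (adjusted p = 0.057). Both lost it when either shRNA library was left out, and AKR1E2 also without scramble replicate 2, with log2 fold changes over the settings of 0.08 to 0.15 and 0.38 to 0.53.

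**Figure D4:**
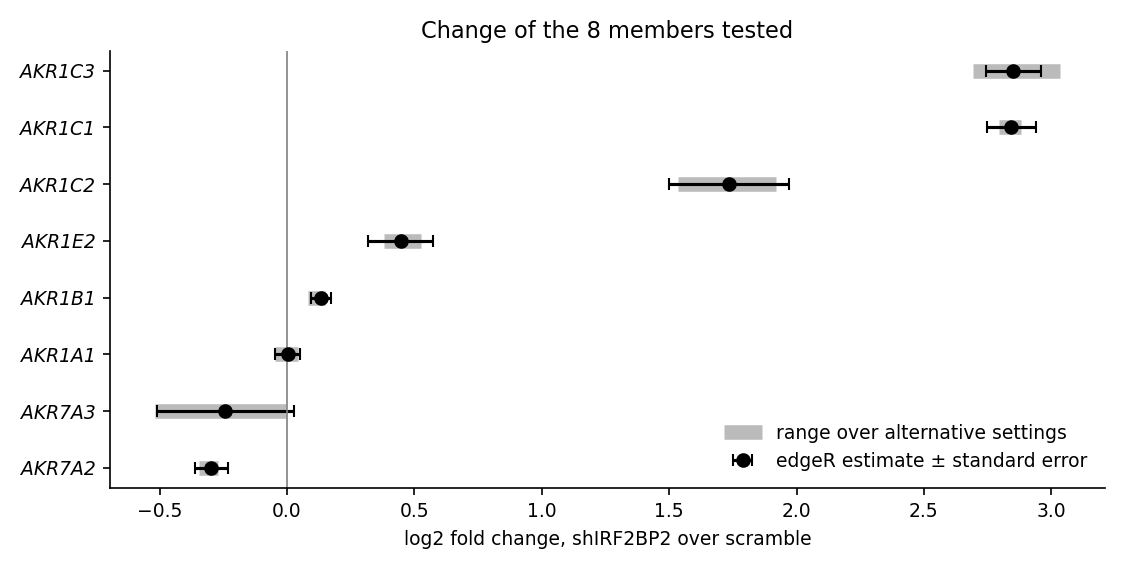
Log2 fold change of shIRF2BP2 over scramble (horizontal axis) for the 8 members tested. Points are edgeR estimates with their standard errors, and grey bars span the alternative settings; AKR1C3, AKR1C1 and AKR1C2 stand apart on the right at 2.85, 2.84 and 1.74.

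Levels of different members can be set side by side only per length, and annotated lengths vary widely in this family. The lengths used were 2: the shortest complete coding transcript and all annotated exons together. Under both, AKR1B1 was highest in both groups, at 142 and 54.6 CPM per kilobase with scramble and 155 and 59.8 with the shRNA. AKR1A1 and AKR7A2 came next with scramble, at 66.7 and 36.5 CPM per kilobase by the shortest transcript and 24.9 and 27.9 by all exons, so their order depends on the length used. With scramble, AKR1C3 stood at 8.05 or 1.73, AKR1E2 at 5.85 or 3.79, AKR7A3 at 1.65 by either, AKR1C2 at 1.21 or 0.28 and AKR1C1 at 0.77 or 0.59 CPM per kilobase. With the shRNA AKR1C3 reached 57.9 or 12.4 CPM per kilobase, above AKR1E2 (7.98 or 5.17) by both lengths and above AKR7A2 (29.7 or 22.7) by the shortest transcript only. The shortest complete coding transcript has 6705 bases for AKR1C1, 1481 for AKR1C2 and 972 for AKR1C3, so that values per length among the 3 depend strongly on the transcript taken.

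Of 11 other family genes and pseudogenes with a row, some of them near copies of members, 5 had enough counts for a test. Of these 2 were called, both lower, a share of 40.0% against 42.0% of all genes tested. Without scramble replicate 2 the count was 1 lower, and without shIRF2BP2 replicate 1 it was 1 higher and 1 lower. The 2 called genes are potassium channel beta subunits, which carry the aldo-keto reductase fold. KCNAB2 fell from 43.1 ± 0.27 to 16.5 ± 0.89 CPM (mean ± SD of 2 libraries; log2 difference -1.38, edgeR adjusted p = 1.54e-07), and KCNAB3 from 11.8 ± 1.73 to 8.11 ± 0.19 CPM (log2 fold change -0.54, edgeR adjusted p = 0.0121). AKR7L, the near copy of AKR7A3, was at 0.73 ± 0.02 and 1.39 ± 0.42 CPM and was not called (log2 fold change 0.92, edgeR adjusted p = 0.0718).

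Most listed NRF2 pathway genes were higher with the shRNA. Of 9 regulators, 6 were called higher, 1 lower and 2 not, against 20.6% and 21.4% of all genes in each direction. NFE2L2, which encodes NRF2, rose from 80.1 ± 0.17 to 97.7 ± 7.90 CPM (mean ± SD of 2 libraries; log2 difference 0.29, edgeR adjusted p = 0.00157). KEAP1, its inhibitor, rose as well, from 87.2 ± 2.55 to 112.9 ± 1.13 CPM (log2 fold change 0.37, edgeR adjusted p = 2.80e-05). SQSTM1, an autophagy receptor that binds KEAP1, rose by 1.01 on the log2 scale, MAFF and MAFG, small MAF partners, by 0.87 and 0.57, and BACH1, a repressor at the same element, by 0.32. MAFG overlaps SIRT7 in the annotation, and how reads of such a pair were assigned is not given. NFE2L1, a relative of NRF2, fell by 0.38.

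Of 22 NRF2 target genes outside the family, 16 were called higher, 4 lower and 2 not (90.9% called, against 42.0% of all genes). Over all genes tested, 20.6% were called higher and 21.4% lower. With a mean of at least 10 CPM, 18 of 20 targets were called, against 6134 of 10383 over all genes. The median log2 fold change of the 22 was 0.48, against -0.01 over all genes tested. The cystine transporter gene SLC7A11 rose from 28.5 ± 1.45 to 137.4 ± 0.95 CPM (mean ± SD of 2 libraries; log2 difference 2.27, edgeR adjusted p = 1.23e-10). NQO1, a quinone reductase, rose from 156 ± 0.99 to 386 ± 10.7 CPM (log2 fold change 1.31). FTH1, ferritin heavy chain, rose by 0.69. The 4 lower genes, named after their values were seen, were HMOX1 (-0.27), the heme-degrading enzyme, the thioredoxin system genes TXN (-0.14) and TXNRD1 (-0.12), and TALDO1 (-0.17) of the pentose phosphate pathway. The number called lower was 1 without shIRF2BP2 replicate 1, 2 without scramble replicate 1 or shIRF2BP2 replicate 2, and 3 without scramble replicate 2, while 15 or 16 were called higher. With no filter on low counts and with DESeq2 it was 2. GCLM and ME1 were not called, with log2 fold changes of -0.03 and -0.05. AKR1C1 and AKR1C3 thus changed by more than 21 of these 22 genes on the log2 scale, OSGIN1, named after its values were seen, being the exception at 3.39. No test was made of that order.

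Enzymes that work on the same substrates moved both ways. Of 25 other carbonyl-reducing and aldehyde-oxidising genes tested, 8 were called higher, 9 lower and 8 not (68.0% called, against 42.0% of all genes). With a mean of at least 10 CPM, 12 of 19 were called, against 6134 of 10383 over all genes. RDH10, which oxidises retinol to retinaldehyde, rose from 13.1 ± 0.29 to 38.9 ± 0.21 CPM (mean ± SD of 2 libraries; log2 difference 1.57, edgeR adjusted p = 6.46e-08). ALDH1A3, which oxidises retinaldehyde to retinoic acid, fell from 9.79 ± 0.16 to 1.70 ± 0.24 CPM (log2 fold change -2.52, edgeR adjusted p = 1.28e-06). The aldehyde dehydrogenase gene ALDH7A1 fell by 0.64 and the carbonyl reductase gene CBR4 by 0.82 on the log2 scale. CBR1, a carbonyl reductase that shares prostaglandin and quinone substrates with the AKR1C enzymes, was named after its values were seen and rose by 0.35.

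Steroid conversion and steroid receptor genes were detected in part. Of 28 such genes, 11 had too few counts for a test, among them PGR, the progesterone receptor, and the enzyme genes HSD3B1, HSD3B2 and CYP19A1 (named after their values were seen). Of the 17 tested, 3 were called higher, 4 lower and 10 not, so that 41.2% were called against 42.0% of all genes tested. Without shIRF2BP2 replicate 1 the number called was 4 in place of 7. HSD17B10, a mitochondrial hydroxysteroid dehydrogenase, rose from 42.6 ± 1.12 to 87.9 ± 4.05 CPM (mean ± SD of 2 libraries; log2 difference 1.04, edgeR adjusted p = 1.04e-07). HSD11B2, which inactivates cortisol, fell by 1.97, HSD17B6 by 0.93 and SRD5A1, a steroid reductase, by 0.27 on the log2 scale.

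Of 20 genes for prostaglandin synthesis and receptors, 13 were tested, with 2 called higher, 5 lower and 6 not (53.8% called, against 42.0% of all genes). PTGS2, HPGDS and PTGDS, which supply the prostaglandin substrates of AKR1C3, had too few counts for a test. PTGS1, the other cyclooxygenase gene, named like these after the values were seen, stood at 6.12 and 4.67 CPM in the group means and was not called. PTGIS, prostacyclin synthase, fell by 3.03 on the log2 scale, to 0.27 ± 0.02 CPM (edgeR adjusted p = 7.85e-05). The prostacyclin receptor gene PTGIR fell by 2.47 and the prostaglandin E receptor gene PTGER3 by 1.38, while the prostaglandin E synthase gene PTGES2 rose by 0.39 on the log2 scale.

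Around aldose reductase, 13 genes for polyol, fructose and glucuronate handling were tested, and 5 were called higher, 1 lower and 7 not, so that 46.2% were called against 42.0% of all genes tested. SORD, which follows AKR1B1 in the polyol pathway, was at 117 and 118 CPM in the group means and was not called (named after its values were seen). KHK, which phosphorylates fructose, fell from 23.1 ± 0.70 to 7.07 ± 0.23 CPM (mean ± SD of 2 libraries; log2 difference -1.71, edgeR adjusted p = 3.24e-07). ISYNA1, inositol phosphate synthase, rose by 0.63, UGDH, which forms UDP-glucuronate, by 0.52 and hexokinase HK1 by 0.36.

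NADPH is the cofactor of these reductases, and its sources were split. Of 17 genes, 4 were called higher, 6 lower and 7 not (58.8% called, against 42.0% of all genes). With a mean of at least 10 CPM, 9 of 15 were called, against 6134 of 10383 over all genes. PGD of the pentose phosphate pathway, named after its values were seen, was higher (log2 fold change 0.40). The mitochondrial transhydrogenase gene NNT fell by 0.79, and the isocitrate dehydrogenase genes IDH1 and IDH2 by 0.91 and 0.50. PGD, ME1 and UGDH each stand in 2 of these lists, so the lists are not independent.

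**Figure D5:**
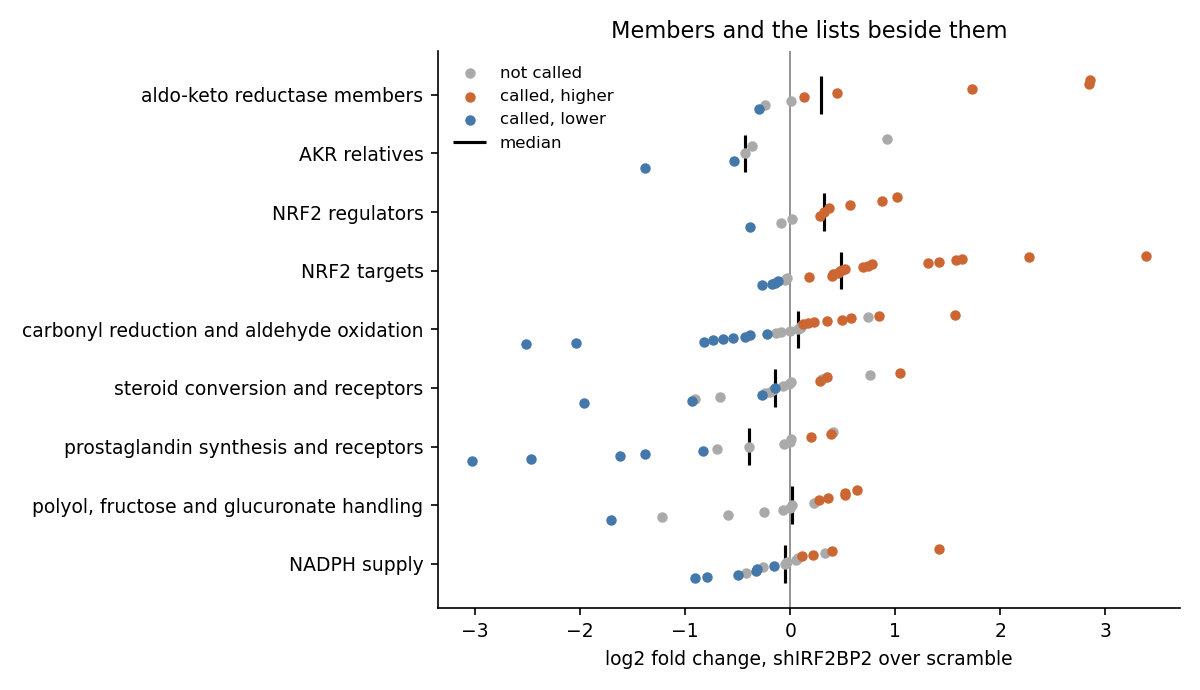
Log2 fold change of shIRF2BP2 over scramble (horizontal axis) of each tested gene of the family and of the 8 lists, coloured by the edgeR call, with the median as a black line. The NRF2 targets lie mostly to the right of 0 with a median of 0.48, and the prostaglandin genes mostly to the left with a median of -0.39.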

How the data were processed

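The authors deposited raw counts, 1 value for each gene and library with no pooling. Reads were aligned with HISAT2 2.2.0 to hg38, per the submitters' processing notes; the counter, its annotation and the read length are not stated there. Control columns carry the abbreviation NC and were taken as scramble because no other group exists. Of 64252 rows, 40995 had a gene symbol. The main test was edgeR 4.0.16 under R 4.3.3 (filterByExpr, TMM scaling, quasi-likelihood F-test, robust), two-sided, with Benjamini-Hochberg adjustment over 19093 genes and a threshold of 0.05. CPM values are TMM-scaled, and standard errors were obtained by dividing the size of the log2 fold change by the root of F. The fit was tested on simulated data. Nothing says that replicates were separate cultures, so p-values measure only how these libraries vary, possibly for technical reasons. The kit does not mark strand.

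Members and lists were chosen with earlier results of these data known. Named genes are all members, IRF2BP2, called relatives and NRF2 regulators, up to 4 called genes per other list with the smallest p, and called protein-coding neighbours within 200000 bases. Gene positions and transcripts came from GENCODE release 29 (GRCh38) and upstream windows from RefSeq (GRCh38.p14). Sequences were aligned globally with Biopython 1.88. Of 153 list entries, 152 had a row. Alternatives used DESeq2 1.42.0 and limma 3.58.1. Some listed genes are not reported here by name.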

Additional observations from a re-analysis of the deposited data

How the results depend on the processing

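Over 12 alternatives, 10 counts of called genes were recomputed, giving 111 values, of which 107 lay within 1.5 times the main count. The number of members called was 6, and lay between 4 and 6 when 1 library was left out. With the AKR1C genes summed it was 4 of 6 features. With the replicate number as a block, 6 members and 7900 of 19093 genes were called in place of 6 and 8016. The labels do not say what a shared number stands for, and deviations of same-numbered libraries correlated at 0.08 over genes. The 4 counts that moved were relatives called with a mean of at least 10 CPM (1 in place of 2), prostaglandin genes under the same filter (2 in place of 7), relatives with 1 library left out (1 to 2), the lower value without scramble replicate 2, and steroid genes with 1 library left out (4 to 7), the lowest without shIRF2BP2 replicate 1. The filter leaves fewer genes to test. The cause of the other moves was not tested.

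The log2 fold change of AKR1A1 turned negative with upper quartile scaling (-0.046), with a mean of at least 10 CPM (-0.037), without scramble replicate 1 (-0.016) and without shIRF2BP2 replicate 2 (-0.032), and was 0.0439 without shIRF2BP2 replicate 1, the highest value with 1 library left out. AKR1C1 stayed between 2.79 and 2.88, AKR1C3 between 2.69 and 3.03 and AKR1C2 between 1.53 and 1.92, called in every alternative that tested them. AKR7A2 stayed between -0.35 and -0.27 and was called in 11 of 11. AKR1B1 lay between 0.08 and 0.15 and AKR1E2 between 0.38 and 0.53. Depth limits AKR1B10, AKR1D1 and AKR1C4, which had at most 13 counts in a library.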

Other observations

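At the other family loci, neighbours were compared with the members. Over all genes tested, 20.6% were called higher and 21.4% lower, and nothing is read from the counts of these few neighbours. Of 6 protein-coding genes within 200000 bases of AKR7A2 and AKR7A3, 4 were called higher and 2 lower. The nearest, SLC66A1, a lysosomal amino acid transporter gene 180 bases from AKR7A2, rose from 16.9 to 25.3 CPM in the group means (log2 fold change 0.58, edgeR adjusted p = 2.31e-04), while AKR7A2 had a log2 fold change of -0.30. Of 8 genes near AKR1A1, 4 were called higher and 4 not. Those called were TMEM69 (log2 fold change 0.49), the peroxiredoxin gene PRDX1 (0.41, edgeR adjusted p = 4.36e-06), MMACHC (0.32) and NASP (0.24). AKR1A1 itself differed by 0.0029. Of 3 genes tested near AKR1B1 and AKR1B10, edgeR called 0, with 0 at an unadjusted p under 0.05, and limma and DESeq2 called 0 as well. Next to AKR1D1, which had no count, CREB3L2 was higher (log2 fold change 0.43) and DGKI lower (-1.59).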
